A study of Drosophila melanogaster with 2 samples.

Results

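Oaz, a zinc-finger protein related to vertebrate ZNF423, was mapped on chromatin at 10 genes of the Notch pathway. The genes are the ligands Dl and Ser, the receptor N, the transcription factor Su(H), its corepressor H, the inhibitor numb, and 4 of the Enhancer of split genes, E(spl)mdelta-HLH, E(spl)mbeta-HLH, E(spl)m3-HLH and E(spl)m8-HLH. The assay was chromatin immunoprecipitation and sequencing on whole embryos of Drosophila melanogaster, collected over 0 to 24 hours of development. The transgenic strain, Oaz-GFP, expresses an Oaz-eGFP fusion that was pulled down with an anti-GFP antibody, although 1 field of the labels names Oaz itself as the antibody. All samples belong to 1 group of 2 biological replicates without a comparison condition, and embryos of all stages and tissues were mixed in each, so cell types cannot be told apart. The genes were chosen by name, with earlier results of these peaks known, and their peaks were selected by position. A peak was taken where its summit lay in the gene body or up to 10 kb to either side. The authors' optimal list held 2772 peaks on the chromosome arms, and 10 of them lay at these genes. Each peak carries a deposited signal, whose scale the sources used here do not state. Its rank is by signal among all 2846 listed peaks. The depth behind the values is unknown, and 2 replicates give no spread beyond the pair of values. The position, signal, rank and replicate support of the peaks were what the selection used, so they are given as a description with no test.

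Notch signalling passes between touching cells. A Delta or Serrate ligand on one cell binds the Notch receptor on its neighbour, which is then cleaved. The freed intracellular part enters the nucleus, joins Su(H) and Mastermind, and switches on target genes. Without it, Su(H) is held with Hairless and corepressors such as Groucho and CtBP. The best known targets in the fly are the Enhancer of split genes, which lie side by side in a complex on 3R that ends with gro. Of these, 7 encode bHLH repressors that limit how many cells of a cluster become neural precursors. Numb, inherited by 1 daughter of a dividing precursor, blocks Notch there. In the mouse, the Oaz relative ZFP423 has been described as acting with the Notch intracellular domain at Hes5, a relative of the E(spl) genes.

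The sequence under 6 of the peaks is shown first, because these peaks carry the main results at gro, numb, N and the Enhancer of split genes. Each line runs 5′ to 3′ on the plus strand of dm6, from 100 bp before to 100 bp after the summit, with letters from the RefSeq Release 6 genome. Capitals mark a match on either strand to ACAGTG or to an E-box, which here is CACGTG or CAGGTG or CAGCTG. Of the other motifs counted at the summits below, the Su(H) heptamers, CACGAG or CACGCG, and TATCGATA had no match in these 6 windows.
gro, between its start sites, nearest member E(spl)m8-HLH, chr3R:26042401-26042601: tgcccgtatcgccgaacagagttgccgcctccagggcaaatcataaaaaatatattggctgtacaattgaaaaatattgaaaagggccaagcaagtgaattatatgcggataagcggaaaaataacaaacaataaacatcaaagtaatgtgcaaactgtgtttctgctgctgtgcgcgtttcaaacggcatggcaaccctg
numb, before its second start site, chr2L:9449516-9449716: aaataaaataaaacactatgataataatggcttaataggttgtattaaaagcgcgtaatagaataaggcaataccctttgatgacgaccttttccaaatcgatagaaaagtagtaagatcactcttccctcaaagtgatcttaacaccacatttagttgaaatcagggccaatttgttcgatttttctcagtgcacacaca
N, intron, chrX:3162479-3162679: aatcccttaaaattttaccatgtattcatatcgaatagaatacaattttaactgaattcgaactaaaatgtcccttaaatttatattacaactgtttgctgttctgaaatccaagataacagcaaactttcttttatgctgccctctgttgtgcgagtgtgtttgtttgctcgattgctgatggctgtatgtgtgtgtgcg
between E(spl)mbeta-HLH and E(spl)malpha-BFM, chr3R:26009079-26009279: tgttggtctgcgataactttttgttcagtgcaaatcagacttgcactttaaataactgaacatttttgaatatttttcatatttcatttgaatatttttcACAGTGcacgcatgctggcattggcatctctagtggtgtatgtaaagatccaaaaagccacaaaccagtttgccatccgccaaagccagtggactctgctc
E(spl)m3-HLH, the nearer peak, chr3R:26021379-26021579: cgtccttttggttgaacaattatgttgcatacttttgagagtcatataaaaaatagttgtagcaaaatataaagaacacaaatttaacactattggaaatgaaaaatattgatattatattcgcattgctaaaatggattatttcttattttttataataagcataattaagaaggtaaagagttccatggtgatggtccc
E(spl)m3-HLH, the farther peak, chr3R:26020410-26020610: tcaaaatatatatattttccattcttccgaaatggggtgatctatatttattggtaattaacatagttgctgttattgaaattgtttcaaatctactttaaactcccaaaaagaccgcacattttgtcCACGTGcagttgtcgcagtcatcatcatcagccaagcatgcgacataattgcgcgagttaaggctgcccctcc

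Neither ligand gene had a listed peak. Dl, listed as Delta (FBgn0000463) in the annotation, spans 3R 19302731 to 19326217, and the nearest listed summit lay 35.0 kb away. Its strongest peak in the longer ranked list, in an intron, reached 47.3 over both replicates, rank 8677 of 150275. Replicate 1 gave 32.4 there and replicate 2 gave 15.4. The peak had a −log10 IDR of 1.08, where the authors' threshold of 0.01 is 2. IDR, the irreproducible discovery rate, scores whether a peak holds its rank between peak lists that are compared. Whether the lists compared for the values given here were those of the replicates was not examined. Ser (FBgn0004197), at 3R 27172090 to 27194267, had its nearest listed summit 36.2 kb away. Its strongest ranked peak, 1244 bp from a transcription start site (TSS) of the gene, reached 55.5, from 27.4 and 24.5 in replicates 1 and 2. The −log10 IDR of that peak was 0.417.

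The receptor gene N (FBgn0004647, X 3134870 to 3172221) held 1 listed peak, deep in the gene. It lay at X 3162414 to 3162743, in an intron of 4245 bp and 27709 bp downstream of the only annotated TSS. The signal was 88.6 in replicate 1 and 73.2 in replicate 2. In the list of both replicates it was 167.5, rank 670, with a −log10 IDR of 3.61. Both replicate lists contained the peak, and that of replicate 2 split it into a pair of overlapping entries, the weaker at rank 1647 of 1680. No TSS of another protein-coding gene lay within 10 kb of its summit. At the N promoter itself no peak was listed. The strongest ranked peak within 500 bp of the TSS gave 17.9 and 21.1 in replicates 1 and 2, near the medians over all genes with such a peak (20.8 and 18.1).

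**Figure D1:**
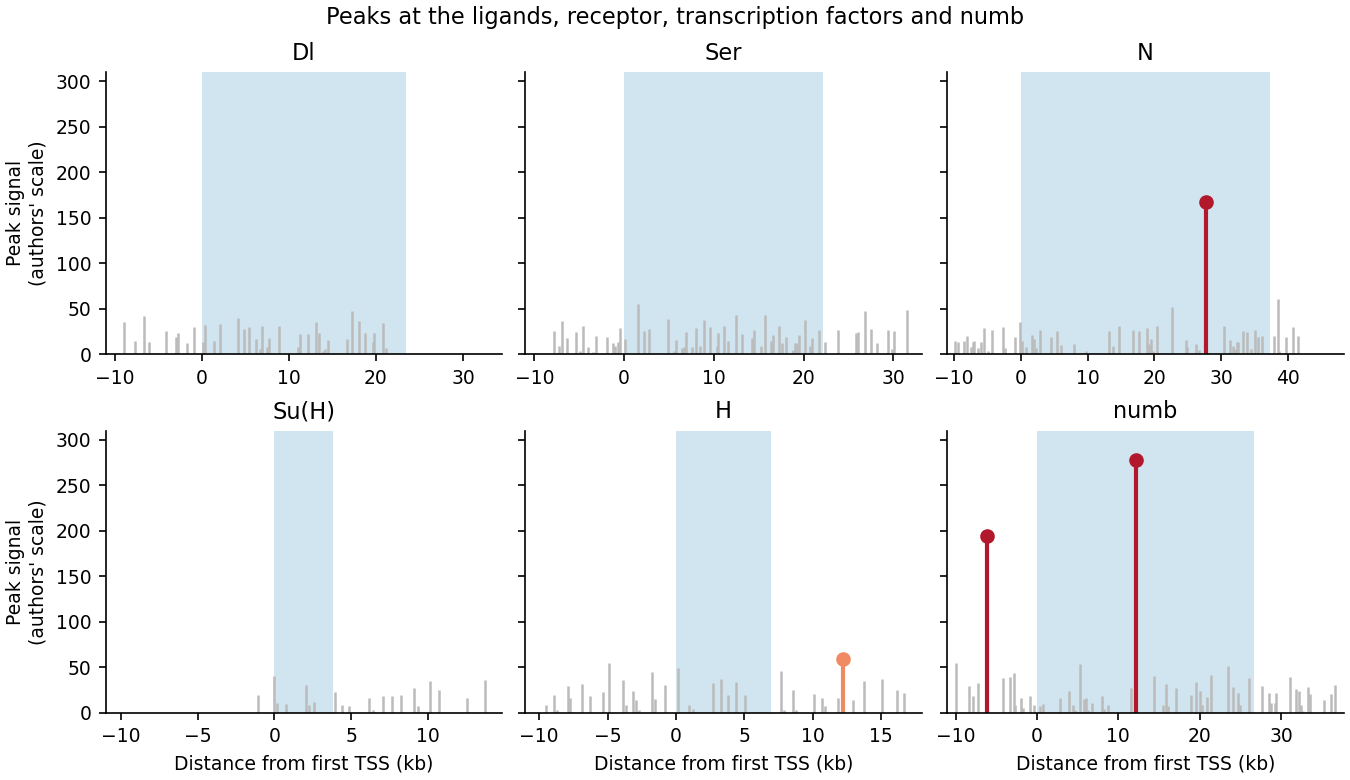
Peaks at 6 members. The vertical axis is the authors' peak signal and the horizontal axis the distance in kb from the first TSS along the gene, with the gene body shaded. Red stems are listed peaks found in both replicate lists, the orange stem is a listed peak found in neither, and grey stems are ranked peaks past no threshold. Tall stems stand in numb and N, and Dl, Ser and Su(H) have grey stems alone.

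Neither Su(H) nor its corepressor gene H had a listed peak in its body or at its promoter. Su(H) (FBgn0004837, 2L 15039488 to 15043334), which encodes the DNA-binding protein of the pathway, had no listed peak, and the nearest listed summit lay 13.6 kb from the gene. A ranked peak 22 bp from its TSS reached 40.9, from 18.5 and 21.0 in the replicates. H (FBgn0001169, 3R 20621938 to 20628915), which encodes the repressor Hairless, had 1 listed peak in its window, at 3R 20633997 to 20634326. That summit lay 5247 bp beyond the end of H, in a 5' UTR of Pi3K92E, a phosphoinositide kinase gene, and 570 bp from the TSS of that gene. It was the weakest of the 10 peaks, with 32.8 in replicate 1, 26.2 in replicate 2 and 59.5 together (rank 2675). It was absent from both replicate lists and from the conservative list. Its −log10 IDR was 2.04, just inside the threshold, and the highest value outside it among ranked peaks at the members was 1.72, at overlapping peaks of 44.5 and 23.4 by the TSS of E(spl)mdelta-HLH.

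The clearest peak at a member's own promoter was that of numb. The gene (FBgn0002973, 2L 9437469 to 9464184) has 2 annotated TSSs, and a summit stood 214 bp upstream of the second, in a peak at 2L 9449451 to 9449780. For the longer transcript this is an intron of 2782 bp. The signal was 162.2 in replicate 1 and 118.6 in replicate 2. Together it was 278.3, rank 273, with a −log10 IDR of 4.60. In each replicate's ranked list, 1.77% of all 13968 protein-coding genes had a promoter peak at least as strong. A further peak in the numb window, at 2L 9431140 to 9431469, had signals of 112.3 and 82.0 and rank 498. Its summit lay 6164 bp upstream of numb and 100 bp from the TSS of scat, a gene of vesicle traffic, so it is a scat promoter peak by position.

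The Enhancer of split complex held 5 of the listed peaks in the 52.3 kb from E(spl)mdelta-HLH to the end of gro (3R 25997621 to 26049911), and a sixth lay just outside its left end. This made 9.56 peaks per 100 kb inside the complex, where all arms together had 2.02. The windows of N, Dl, Ser, numb, Su(H) and H together had 1.66. Genes are also denser in the complex, with 13 in its 52.3 kb, where the arms have 13968 protein-coding genes in 137548 kb. The complex was chosen with its peaks known, so the difference in peak density was not tested. Peaks stood in 4 places, namely at gro, before E(spl)m3-HLH, between E(spl)mbeta-HLH and E(spl)malpha-BFM, and outside E(spl)mdelta-HLH.

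**Figure D2:**
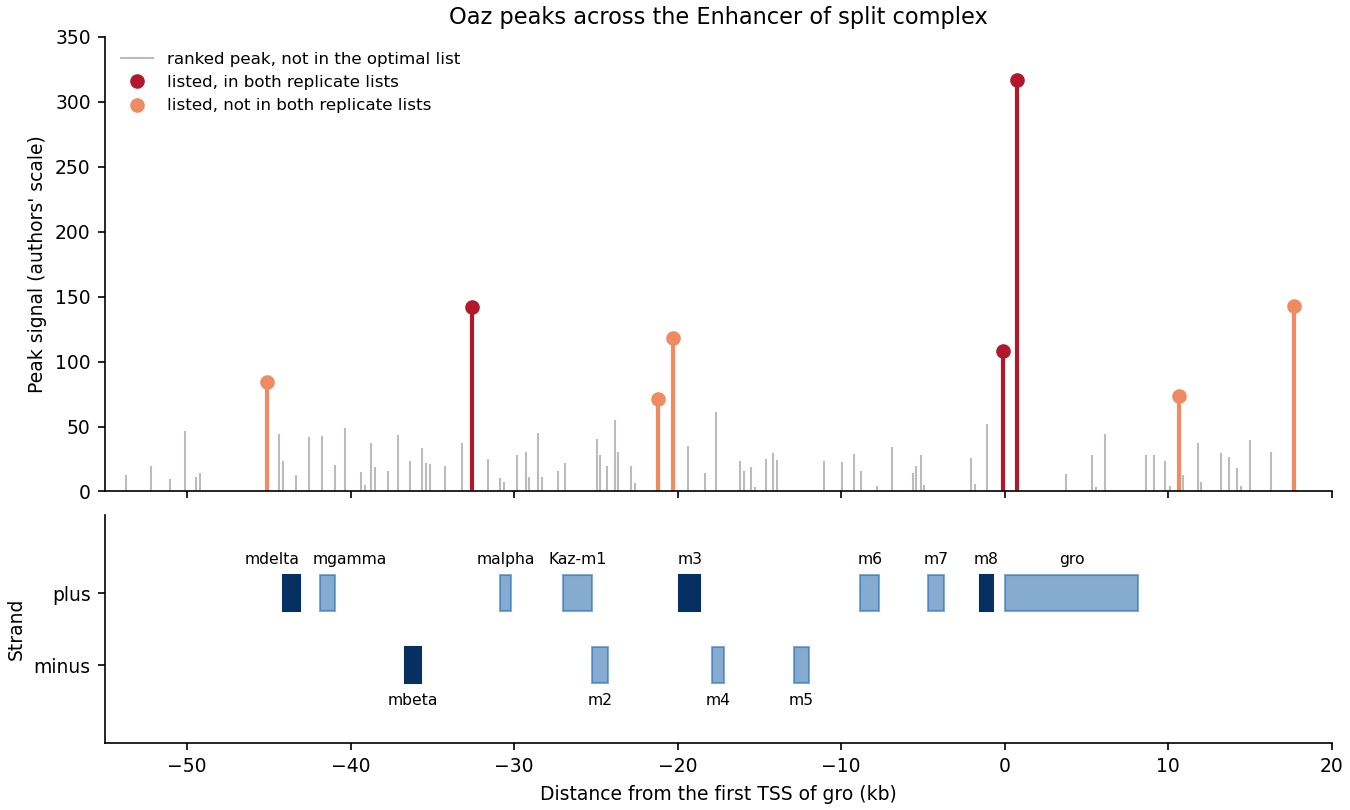
The Enhancer of split complex. The upper panel gives the authors' peak signal and the lower panel the genes by strand, dark for the members, over the distance in kb from the first TSS of gro. Red stems are listed peaks found in both replicate lists, orange stems are listed peaks that were not, and grey stems are ranked peaks past no threshold. The tallest stem stands at gro (316.5) and the stretch over m4, m5, m6 and m7 has none that is listed.

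The strongest of the 10 peaks lay in gro, which encodes the corepressor Groucho, and not at an E(spl) gene proper. It was reached through the window of E(spl)m8-HLH (FBgn0000591, 3R 26040240 to 26041008), 1493 bp beyond the end of that gene. It spans 3R 26042419 to 26042586, in an intron of 376 bp, and its summit stood 140 bp upstream of an internal TSS of gro. Signals were 182.3 in replicate 1 and 130.9 in replicate 2, and 316.5 together, rank 207. A weaker peak, spanning 3R 26041491 to 26041820, was centred 80 bp upstream of the first gro TSS, between E(spl)m8-HLH and gro, with 66.4 in replicate 1 and 43.1 in replicate 2. Both replicate lists contained both gro peaks. The promoter of E(spl)m8-HLH itself had no ranked peak in replicate 1 and one of 28.6 in replicate 2.

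E(spl)m3-HLH (FBgn0002609, 3R 26021823 to 26023127) was the only bHLH gene of the complex with a listed peak within 500 bp of its TSS. Of the peaks upstream of it, the nearer spans 3R 26021314 to 26021643 with a summit 344 bp before the gene start, and had 59.8 in replicate 1 and 54.0 in replicate 2. Together the signal was 117.8, rank 1166. The list of replicate 2 contained it and that of replicate 1 did not. The farther spans 3R 26020345 to 26020674, 1313 bp before the gene start and inside the non-coding gene lncRNA:CR43644. It had 45.6 in replicate 1 and 33.1 in replicate 2, and neither replicate list contained it.

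The remaining E(spl) peaks were away from promoters of the complex. One, spanning 3R 26009014 to 26009343, was in intergenic sequence, 3156 bp upstream of E(spl)mbeta-HLH (FBgn0002733) and 1714 bp upstream of E(spl)malpha-BFM, a Bearded family gene. The flanking genes are transcribed away from it on opposite strands. Replicate 1 gave 81.4 and replicate 2 gave 58.0, with rank 869 together, and the peak was in both replicate lists. The other, spanning 3R 25996461 to 25996790, was 995 bp upstream of E(spl)mdelta-HLH (FBgn0002734), in an intron of CG43116 and 370 bp from the TSS of that gene. Replicate 1 gave 55.1 and replicate 2 gave 27.1, the highest ratio between the replicates among the 10 peaks, and the list of replicate 2 did not contain it. It also falls in the window of E(spl)mbeta-HLH, 8420 bp from that gene. Just beyond the 10 kb limit, the mbeta-malpha peak lay 10.5 kb from E(spl)mdelta-HLH, and a peak at Exo84 with a signal of 73.5 lay 11.4 kb from E(spl)m8-HLH.

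Replicate 1 gave the higher signal at 10 of 10 peaks, with log2 ratios of replicate 1 to replicate 2 from 0.15 to 1.02. Over the 6 peaks that both lists contained the median was 0.47 (0.28 to 0.62), and over all listed peaks in both lists it was 0.36. The first 5 peaks, at gro, numb, scat, N and between mbeta and malpha, stood in the same order in both replicates. Of the others, 2 were in 1 replicate list and 2 in neither. Among all 2772 arm peaks, 45.5% were in both replicate lists. The median signal of the 10 peaks was 129.8, and that of all arm peaks 102.8.

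**Figure D3:**
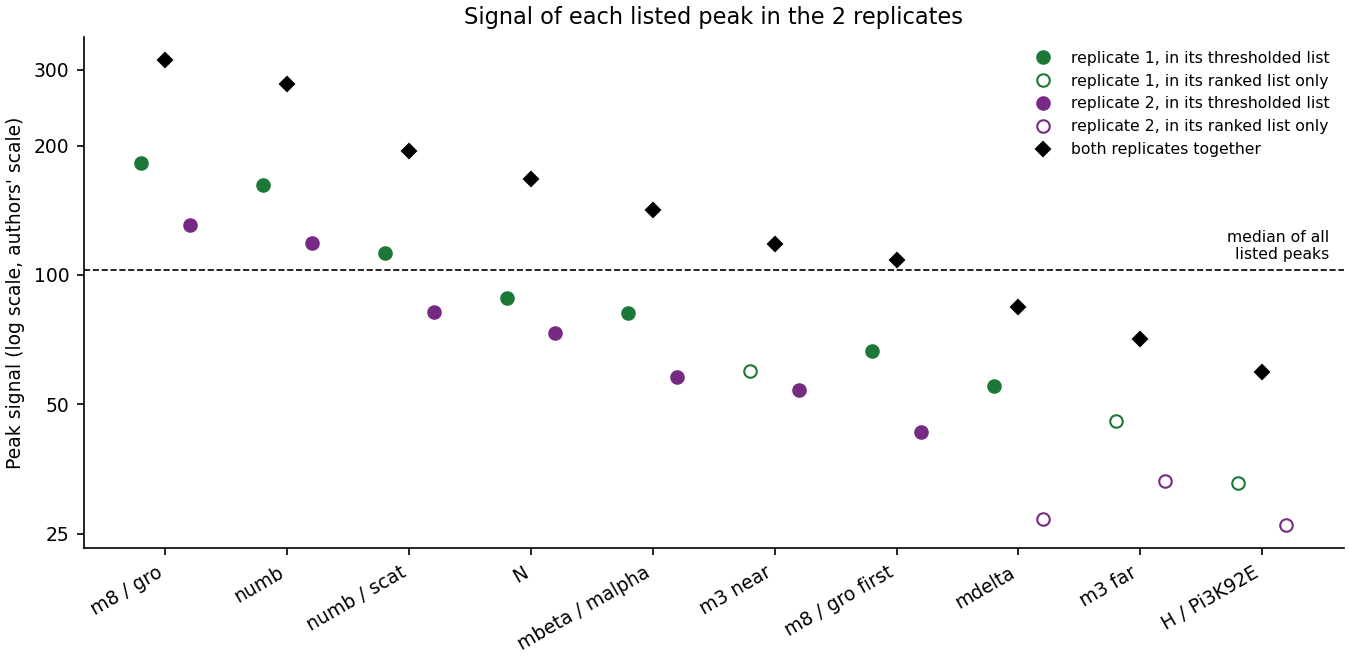
Signal of the 10 listed peaks. The vertical axis is the authors' signal on a log scale, with green circles for replicate 1, purple circles for replicate 2, black diamonds for the list of both, and open circles where the peak is only in that replicate's ranked list. The dashed line is the median of all listed peaks (102.8, list of both replicates), and each green circle stands above its purple partner.

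Set against all genes, having a peak in so wide a window was common. A listed summit lay in the window of 7 of the 10 members, and of all 13968 protein-coding genes 47.9% had one. With peaks found in both replicate lists the count was 4 of 10 (N, numb, E(spl)mbeta-HLH and E(spl)m8-HLH), beside 29.1% of all genes. A summit within 500 bp of the gene's own TSS was found at 2 of 10, numb and E(spl)m3-HLH, beside 11.6% of all genes. The members were chosen with these peaks known, so nothing is read from the difference. Windows of the members were 20.8 to 57.4 kb wide (median 25.4 kb), and the median over all genes was 22.2 kb. The 4 E(spl) windows overlap or adjoin and share peaks, so these genes are not independent counts. By nearest TSS, 3 of the 10 peaks belonged to a member, 1 to numb and 2 to E(spl)m3-HLH.

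Below the thresholds, the ranked lists gave a value at the promoters of most members. Replicate 1 had a ranked promoter peak at 6 of the 10 members and at 72.9% of all protein-coding genes, and replicate 2 at 9 of 10 and 63.7%. H and E(spl)m8-HLH had none in replicate 1, and 31.2 and 28.6 in replicate 2, above the median of 18.1. E(spl)mdelta-HLH had 30.5 and 23.7, E(spl)mbeta-HLH 16.4 and 20.9, and Su(H) 18.5 and 21.0. In the list of both replicates, the share of genes with a promoter peak at least as strong was 26.6% for Su(H), 33.7% for N and 40.3% for Dl. The Dl promoter had no ranked peak in the list of either replicate, and that of Ser had none in replicate 1 and 12.7 in replicate 2. The rest of the complex was mixed: E(spl)m7-HLH had 4.90 and 17.9, E(spl)mgamma-HLH 25.3 and 10.3, and E(spl)m5-HLH 13.3 and no peak. The order of the replicates turned from gene to gene at these low values.

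**Figure D4:**
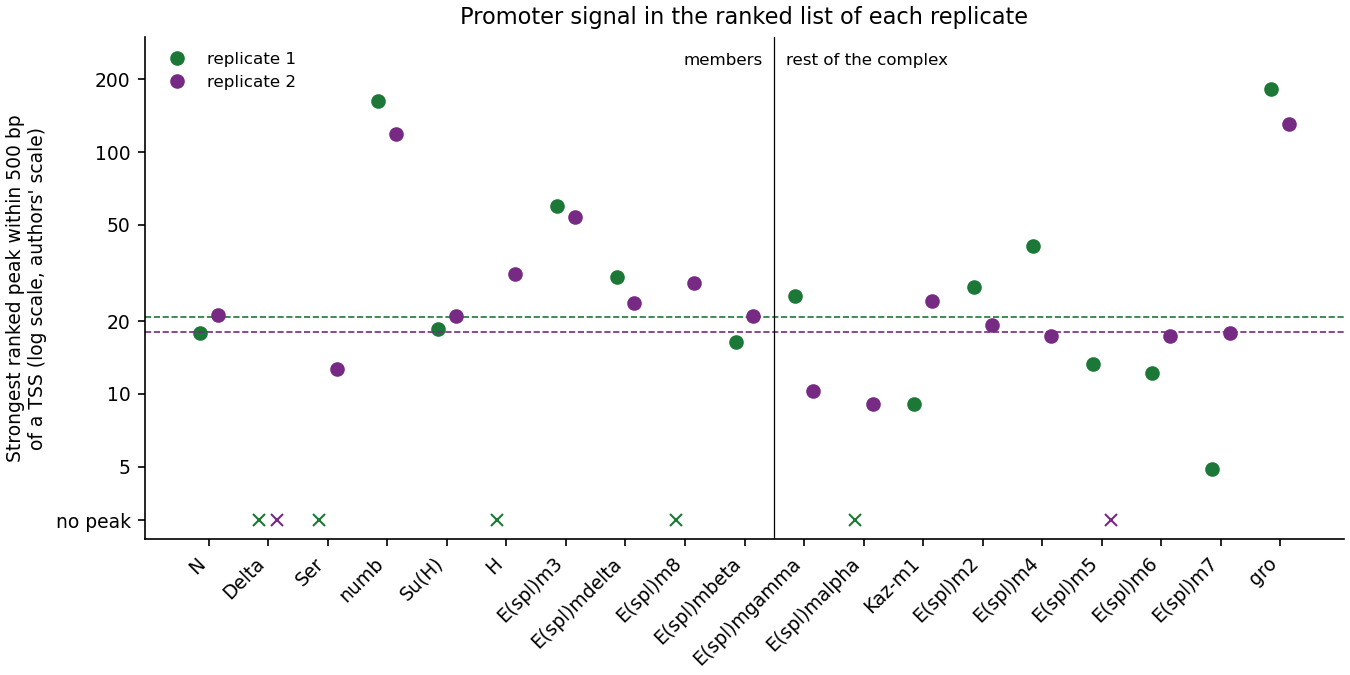
Strongest ranked peak within 500 bp of a TSS, for the members at left and the rest of the Enhancer of split complex at right. The vertical axis is the authors' signal on a log scale, circles are replicate 1 (green) and replicate 2 (purple), crosses mark genes with no ranked peak there, and dashed lines are the medians over all genes with such a peak (20.8 and 18.1). numb, gro and E(spl)m3-HLH stand above the rest in both replicates.

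Matches to the Su(H) site were frequent in the complex, and 1 of them reached into a listed peak. The heptamers GTGGGAA and GTGAGAA, on either strand, matched 46 times in the complex, 8.80 per 10 kb, where the arms as a whole had 2.26 per 10 kb. Of its 12 genes other than gro, 9 had a match in the 1000 bp upstream, 25 matches in all. The 5 listed peaks in the complex cover 1.49 kb, or 2.85% of it, so few matches could have fallen there. They held 0 whole matches, and 1 match overlapped a peak in part, with 6 of its 7 bases inside the left edge of the farther E(spl)m3-HLH peak. From the 10 summits the nearest match was 166 to 3995 bp away (median 495.5 bp), and from all arm summits the median was 1441 bp. These medians are of unlike sets of positions, and their difference was not tested. Of the 10 summits, 6 lie in or beside the complex, where matches are dense. Those 6 were 166 to 703 bp from a match. The N summit was 208 bp away, and those at numb, scat and H were 2224, 3995 and 2114 bp away. A match is a description of letters and was not shown to be a bound site.

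Few of the motifs searched lay at the summits. Within 100 bp to either side, ACAGTG was in 1 of the 10 windows and in 22.2% of all 2772, with 8.64% of flanks 700 bp away. That match, between E(spl)mbeta-HLH and E(spl)malpha-BFM, begins at the summit base itself, 0 bp from it, as the capitals in the printed window show. An E-box as defined above, the kind of site that bHLH proteins bind, was in 2 of 10, beside 15.2% of all windows and 19.2% of flanks. These were CAGCTG at the scat peak and CACGTG at the farther E(spl)m3-HLH peak, 28 bp from its summit. The Su(H) heptamers were in 0 of 10, beside 4.98% of all windows and 5.0% of flanks. CACGAG or CACGCG, letters bound by E(spl) proteins, were in 0 of 10, beside 7.61% of all windows and 10.2% of flanks. The promoter element TATCGATA was in 0 of 10, beside 2.78% of all windows and 0.541% of flanks. These shares over 10 windows were not tested, and no match says only that the letters are not in this window. The GC content of the windows ran from 26.4% to 44.3% (median 36.1%), and the median over all peaks was 35.3%.

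Beyond the members, 57 further genes of the pathway were examined. A listed summit lay in the window of 32 of them (56.1%), and 9 of these lie in the Enhancer of split complex and share its peaks. Of the 48 outside the complex, 23 had one (47.9%), the same share as over all genes. Peaks found in both replicate lists lay at 17 of the 48 (35.4%), beside 29.1% of all genes. Peaks within 500 bp of their own TSS lay at 8 (16.7%), beside 11.6% of all genes. These differences were not tested. By role the window counts were 5 of 9 for receptor cleavage, 3 of 4 for sugar modification of Notch, 2 of 7 for ligand activation and 5 of 10 for trafficking and turnover. Other targets and proneural genes had 6 of 16.

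For the other pathway genes named here, those outside the complex with the highest signals, the strongest peak mostly lay nearest to a neighbour's TSS. l(2)gd1, which acts in endosomal sorting of Notch, was an exception. Its strongest peak, of 484.9 (269.3 and 213.4 in the replicates), stood 100 bp from its own TSS. The window of Kul, an ADAM protease gene, reached a peak of 1212, which lay 11016 bp from the TSS of Kul and nearest to that of CG7601. For shrb, an ESCRT gene, the peak of 468.5 lay 5046 bp from its TSS and 214 bp from that of CG44286 and CG8788. For O-fut1, which adds fucose to Notch, the peak of 378.4 lay 3831 bp from its TSS and 111 bp from that of CG13018. The peak of 340.3 at Fur1, a furin protease gene, lay 282 bp from a Fur1 TSS and 150 bp from that of Vps33B. That of 290.9 for aph-1, a gamma-secretase subunit, lay 6437 bp from its TSS and 119 bp from that of HemK2 and Snapin. The window of aph-1 held 3 listed peaks, all in both replicate lists, and 2 of them lay within 500 bp of its own TSS. phyl, a gene of sensory precursor fate, had 7 peaks, the strongest of 298.4 lying 237 bp from the start of L, the neighbouring gene that encodes Oaz. Of the 7, 1 lay within 500 bp of a TSS of phyl itself.

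A coactivator and a corepressor gene completed the nuclear part of the pathway, and both were singled out after their values were seen. mam, which encodes Mastermind, had 4 peaks, the strongest with 152.6 in replicate 1 and 116.9 in replicate 2, 6480 bp from its nearest TSS. Of the 4, 1 lay within 500 bp of a TSS of mam, and 3 were in both replicate lists. CtBP had 1 peak 883 bp from its TSS, with 56.7 and 30.3, not in both lists. The E3 ligase gene neur, also named after its value was seen, had 1 peak 1721 bp from its TSS with 121.8 and 61.3. No listed peak lay in the windows of kuz, fng, dx, wg, sca or the proneural genes ac, sc, l(1)sc and ase. Brd, Tom, Ocho and BobA, Bearded family genes outside the complex, had none either.

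**Figure D5:**
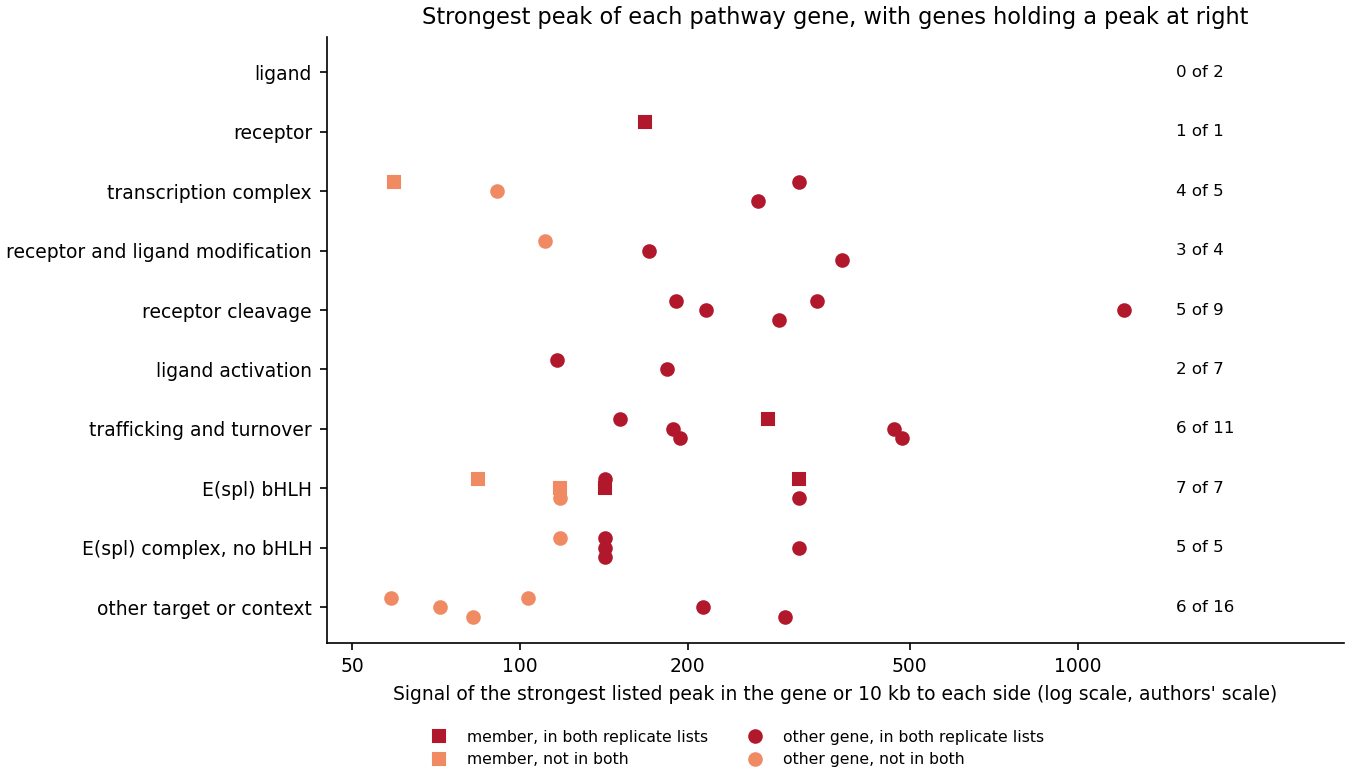
Strongest listed peak in the window of each pathway gene, by role. The horizontal axis is the authors' signal on a log scale, squares are the members and circles the other genes, red where both replicate lists contain the peak and orange where they do not. Numbers at right count the genes with a listed peak, members included. Genes of the complex share peaks, seen as symbols at the same signal.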

How the data were processed

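Peak lists from chromatin immunoprecipitation of Oaz-eGFP in whole embryos were analysed, with 2 biological replicates in 1 group. The authors deposited 8 lists on dm6, made from alignments of the replicates and a control per the deposited description; the sources used here name no aligner, peak caller or scale. Each peak has a deposited signal value, and the ranked lists add a −log10 global IDR, as deposited. Per-library columns (8) were not used. Reads were not analysed here, so depth is unknown. The genes and gene lists were chosen with earlier results of these data known.

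Protein-coding genes (13968) came from Ensembl release 115 and sequence from RefSeq Release 6, whose arms hold every listed arm peak. Dl, h, nct, kul, NAK, lgd and E(spl)m1 were matched to Delta, hry, Nct, Kul, Nak, l(2)gd1 and Kaz-m1. A summit was assigned to each gene whose body or 10 kb to either side held it, and promoters were 500 bp to either side of a TSS. A peak was in a replicate list when it overlapped a peak there by 1 bp or more. Motifs were matched on both strands within 100 bp of summits and of points 700 bp to each side. No test was run, as the selection used the peaks themselves. Named were the members, the nearest gene and host of their peaks, genes of the complex and up to 8 other pathway genes with the strongest peaks, and the exceptions are said in the text. Assignment was tested on simulated data. Software was Python 3.11.15, numpy 2.4.6, pandas 2.3.3, scipy 1.17.1 and matplotlib 3.10.9.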

Additional observations from a re-analysis of the deposited data

How the results depend on the processing

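With an IDR of 0.001 or less, 4 members had a peak in place of 7, from 5 peaks in place of 10, with 1 member in place of 2 at its own promoter and 3 peaks in place of 6 at any promoter. With the gene body only, 2 members (N and numb), 2 peaks and 7 in place of 32 other pathway genes were counted. With the nearest TSS, 2 members (numb and E(spl)m3-HLH), 3 peaks and 13 other pathway genes were counted. A promoter of 250 bp lost E(spl)m3-HLH (1 member). The share of all genes with a peak, 47.9%, was 45.9% with the conservative list, 29.9% at an IDR of 0.001, 34.6% with 5 kb, 65.4% with 20 kb, 8.50% with the gene body and 14.9% with the nearest TSS. Leaving out 1 replicate gave 35.6% to 37.4% and 1 to 2 members with a promoter peak. From ranked peaks at their promoters it gave 6 to 9 members in place of 10. Such a ranked promoter peak was common, at 79.8% of all protein-coding genes in the list of both replicates. The shares were 72.9% in replicate 1 and 63.7% in replicate 2. In the ranked lists, an alternative chosen after seeing the data, 10 in place of 6 peaks were found in both replicates. Those lists hold 130607 peaks for replicate 1 and 81899 for replicate 2, so an overlap there is easily met. The share of all listed peaks that meet it was not counted, so nothing is read from the 10. Windows of 200 bp to either side of the summit held a Su(H) match at 1 peak, ACAGTG at 3, an E-box at 4 and CACGAG or CACGCG at 2, and windows of 50 bp to either side an E-box at 1. Of 76 values under alternatives, 49 stayed close to the reported one, meaning within 1.5 times for a count or rank and inside the 95% Wilson interval for the share of all genes. In the optimal, the conservative and both replicate lists, the strongest peak in a member's window was the one before the internal TSS of gro. No paired analysis was possible because there was 1 group.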

Other observations

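The hexamer AGTGCA was searched after the printed windows had been read, so its count is a description, and its matches are not in capitals there. It was in 3 of the 10 windows, at numb, between E(spl)mbeta-HLH and E(spl)malpha-BFM and outside E(spl)mdelta-HLH. It was in 17.3% of all 2772 summit windows and in 12.5% of flanks. At the peak between E(spl)mbeta-HLH and E(spl)malpha-BFM it matched 3 times, once overlapping ACAGTG at the summit.

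To the right of gro, 2 more listed peaks lay outside the windows of the members. A peak 155 bp from the TSS of Exo84 had a signal of 73.5, and one 105 bp from the TSS of Trmt61 had 142.9, rank 857. Neither was in both replicate lists, although the peak at Trmt61 was stronger than that between E(spl)mbeta-HLH and E(spl)malpha-BFM, which was.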
